A study of Mus musculus with 2 samples.

Results

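Dendritic and MHC II-high cells were taken from a droplet library of mouse spinal cord made 3 days post injury (3 dpi). They were 337 cell barcodes of the 13594 in that library. Members were chosen by their own counts of unique molecular identifiers (UMIs, 1 per captured transcript), by the values of 14 genes. A member had at least 1000 UMIs and at least 150 UMIs per 10000 summed over the class II genes H2-Aa, H2-Ab1 and H2-Eb1 and the invariant chain Cd74. It also had at least 2 UMIs summed over the dendritic genes Flt3, Cd209a, Ccr7, Xcr1, Clec9a, Zbtb46 and Ifitm1, no UMI of the B cell gene Cd79a, and less than 100 per 10000 of the neutrophil genes S100a8 and S100a9. The levels of these 14 genes are therefore given as a description of the choice. The series held 2 libraries, 1 from sham C57BL/6 mice, whose procedure is not described further in the sources used here, and 1 from C57BL/6 mice at 3 dpi. In both, cells came from a pool of mice aged 8 weeks, 5 of them male and 5 female, and from a cord segment of 8 mm around the injury site. How the cord was injured is not stated in those sources. With 1 library per group there are no replicates and no tests, and a difference between the libraries cannot be told apart from a difference between sham and injury. Because animals were pooled, how far the cells of single mice differed could not be seen.

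Dendritic cells take up material in tissue, cut it into peptides and show these on MHC class II molecules to helper T cells, and they leave for lymph nodes along Ccr7 ligands when they mature. Conventional dendritic cells fall into a cDC1 type, marked by Xcr1 and Clec9a, and a cDC2 type, and monocytes that enter inflamed tissue can take on a similar form. The healthy cord parenchyma holds few such cells, which are known mainly from the meninges and the choroid plexus.

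The 3 dpi library held 149291783 UMIs in all and the sham library 76889038, with medians of 9117 and 5522 UMIs per barcode, and 39 barcode sequences occurred in both libraries. Members held 2129967 UMIs together, from 1211 to 28334 per cell with a median of 5460, and a median of 1796 genes. Called doublets were kept and made up 33 members (9.79%), all among the members that carried Ifitm1 but under 2 UMIs of each other dendritic gene or pair. Y-linked UMIs without Xist were seen in 102 members, Xist without Y-linked UMIs in 105, both in 10 and neither in 120. Both sexes of the pool were thus represented. Square brackets hold 95% intervals that cover counting error only. Those of summed UMIs treat each UMI as independent and leave out the spread between cells and between mice.

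Members were 2.64% [2.37 to 2.94] of the 12743 barcodes with at least 1000 UMIs at 3 dpi. The same rule was passed by 2 of 9894 such barcodes in sham (0.0202% [0.00245 to 0.0730]). The share was 131-fold [35.9 to 1085] higher at 3 dpi. That ratio depends on Ifitm1. With Ifitm1 left out of the rule, 72 barcodes passed at 3 dpi (0.565%) and still 2 in sham, which makes the ratio smaller. With every barcode thinned to 1000 UMIs, which removes the difference in depth, 255 barcodes passed at 3 dpi (2.0%) and 0 in sham, which allows a share of up to 0.0303% by a limit of 3 counts and 0.0373% by the exact interval. The 2 sham barcodes held 12916 and 12096 UMIs. The one had 4 UMIs of Flt3 and 1 of Ifitm1. The other had 7 of Cd209a and 1 of Flt3. A further 17 sham barcodes reached the class II minimum with 0 dendritic UMIs, and these held the macrophage genes Lyz2 at 15503, C1qa at 5259 and Mrc1 at 629 CPM (UMIs summed over the cells per 1000000 UMIs of those cells). The MHC II-high barcodes of the sham library were thus few, and those with no dendritic UMI were rich in macrophage transcripts.

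The class II minimum lay in a sparse region of the library. Among MHC II-high barcodes few lay next to the dendritic minimum either, and members had a median of 28 dendritic UMIs. Of the 11909 barcodes under the B cell and neutrophil limits, 11043 had less than 10 class II UMIs per 10000. There were 14 members between 150 and 170 per 10000, with Lyz2 at 6384 CPM, and 11 barcodes with enough dendritic UMIs between 130 and 150, with Lyz2 at 7953 CPM. At the other limit, 14 members had exactly 2 dendritic UMIs (Lyz2 at 3745 CPM). A further 24 MHC II-high barcodes had 1 (9619 CPM) and 38 had 0 (10403 CPM). At least 2 dendritic UMIs alone did not mark the members, since 1267 barcodes with class II under 50 per 10000 also had them, 1212 of these through Ifitm1. Left out by the other limits were 1 barcode with a Cd79a UMI and 2 with S100a8 and S100a9 at 100 or more per 10000.

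**Figure D1:**
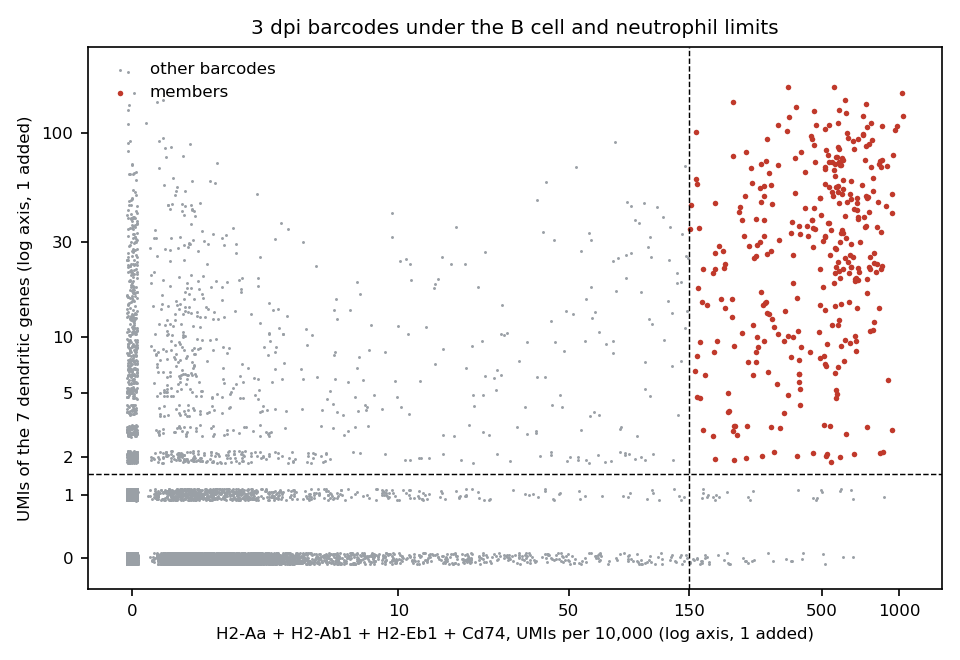
Each point is 1 of 11909 barcodes of the 3 dpi library; the x axis is the sum of the 4 class II genes in UMIs per 10000 and the y axis the UMIs of the 7 dendritic genes, both on log axes with small jitter for overlapping low values. Dashed lines are the minimums of the rule; the 337 members (red) form a cloud around a median of 517 per 10000, apart from the 11043 barcodes under 10.

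Among the genes of the rule, Cd74 stood at 20116 CPM, H2-Ab1 at 10303, H2-Aa at 8718 and H2-Eb1 at 7528 in members. The sum of these 4 ran from 151 to 1039 per 10000 UMIs of a cell, with a median of 517. Ifitm1, an interferon-induced membrane protein, had a UMI in 329 members (97.6%) and stood at 6000.1 CPM, with a median of 50.8 and a highest value of 319 per 10000. Flt3, the receptor for the dendritic growth factor Flt3 ligand, had a UMI in 70 members (20.8%). The lectin Cd209a had one in 41 (12.2%), the lymph node homing receptor Ccr7 in 29 (8.61%), the transcription factor Zbtb46 in 20 (5.93%), Clec9a in 16 (4.75%) and Xcr1 in 13 (3.86%). For 198 members Ifitm1 was the only one of the 7 genes with a UMI. Without Ifitm1 in the rule, 72 barcodes passed at 3 dpi (0.565%) and 2 in sham. The dendritic part of the label thus rested on Ifitm1 alone for most members, and Flt3 was not seen in most. Oligodendrocytes (2006 barcodes with at least 50 UMIs per 10000 of myelin genes) were taken as cells that should lack these genes, as a rough guide to free RNA. They had Ifitm1 at 33.3 and Cd74 at 55.6 CPM, at a median depth of 9638 UMIs. Called doublets made up 351 of them (17.5%), and 114 had Lyz2 at 50 or more per 10000. Their summed levels are therefore not free RNA alone.

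Members were set beside 3 other cell groups of the same library. The first, the cells most like them, were the 38 MHC II-high cells with 0 dendritic UMIs (median depth 4525.5 UMIs). The second were 292 monocytes, defined by a sum of Chil3 and Plac8 of at least 10 per 10000 with class II under 50 per 10000 (3982.5 UMIs). The third were 2576 macrophages, defined in the same way by Arg1 and Pf4 (9595.5 UMIs), which monocytes were to lack. Both had under 2 per 10000 of 4 microglia genes. Genes used for the rule or for a group's limits were left out of that comparison. Genes counted as measured reached 20 CPM in either of the 2 groups, and a gene is called higher or lower here at a ratio of at least 2-fold after 10 CPM were added to both, which is a size rule. Log2 ratios are on that scale and understate the ratio of low genes. Against the MHC II-high cells with 0 dendritic UMIs, 279 of 5637 measured genes were higher in members (4.95%) and 287 lower (5.09%). Against monocytes, 273 of 5585 were higher (4.89%) and 390 lower (6.98%). Against macrophages, 454 of 5482 were higher (8.28%) and 352 lower (6.42%). Over all measured genes the log2 ratio had medians of -0.06, -0.05 and 0.06. The first group held only 220224 UMIs, so that 1 UMI was worth 4.54 CPM there, against 0.748 in monocytes and 0.0368 in macrophages.

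The class II peptide-loading genes that the rule did not use were high in members. Members were chosen for high class II, and monocytes and macrophages were limited to low class II. Genes that go with class II would therefore differ between them through the choice of cells alone. How much of the gaps to monocytes and macrophages follows from that choice was not tested. H2-DMa and H2-DMb1, the chains of the H2-M protein that exchanges peptides on class II, stood at 695 [660.4 to 732] and 910.3 [870.3 to 952] CPM in members. H2-DMa stood at 99.5 CPM in monocytes, 45.8 in macrophages and 13.7 in oligodendrocytes, and H2-DMb1 at 47.2, 39.6 and 9.60. A UMI of H2-DMb1 was seen in 91.7% of members, 16.8% of monocytes and 29.5% of macrophages, against 6.58% of oligodendrocytes. After thinning to 1000 UMIs the shares were 55.5%, 3.42%, 3.18% and 0.349%. H2-DMb1 was thus 19.3-fold [15 to 25.2] higher than in monocytes and 23-fold [21.3 to 24.8] higher than in macrophages. H2-DMb2 had 356 UMIs in members (167 CPM) and 0 in monocytes, at least 74.4-fold higher against a floor of 3 counts over the group. H2-DMb1 and H2-DMb2 are close copies, so how reads were shared between them is uncertain. H2-Oa and H2-Ob, the chains of the H2-O protein that restrains H2-M and is known from B cells and some dendritic cells, stood at 195 and 53.5 CPM in members, against 2.25 and 1.5 in monocytes and 0.258 for each in macrophages. Ciita, the activator that switches on class II genes, stood at 100.5 CPM in members, with 0 UMIs in monocytes (at least 44.7-fold higher) and 0.147 CPM in macrophages.

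The same genes were lower in the MHC II-high cells with 0 dendritic UMIs. There H2-Oa stood at 13.6 CPM [2.81 to 39.8], H2-DMb2 at 36.3, Ciita at 27.2 and H2-Ob at 9.08, and all 4 were higher in members by the size rule. H2-DMa (372 CPM, log2 0.88) and H2-DMb1 (459 CPM, log2 0.97) were not. Those cells also had less class II, with a median of 214 per 10000. Of the 11 measured genes of the fixed class II presentation list, 4 were higher and 1 was lower against them (list median log2 0.88). Against monocytes 6 were higher and 2 lower (2.47), and against macrophages 6 and 2 (2.63), both being groups limited to low class II. The lower ones were the lysosomal protease Lgmn, at 408 CPM in members, 1332 in monocytes and 371 in oligodendrocytes, and the tetraspanin Cd37. In B cells of the same library (38 cells, median 1247.5 UMIs) H2-Oa stood at 357, H2-Ob at 588 and Ciita at 160.5 CPM. All 3 were thus also present in another antigen-presenting cell.

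The Y box is a short element of class II promoters, and its letters were searched upstream of class II genes. The letters TGATTGG, searched on both strands, were found in 2568 of 32851 RefSeq windows (7.82%), each of 250 bases before to 50 after a gene's start in GRCm38.p6. No other motif was searched. Of 9 class II genes searched, 8 had windows, and 7 held the letters on the gene's own strand, 45 to 102 bases before the start. The 2 windows of H2-DMa did not hold them. H2-Ab1 had no entry. Slices of 90 bases are shown for the rule gene H2-Aa, for 1 gene of H2-M, for both of H2-O and for H2-Eb2, whose UMIs came from 1 subset of members. They run 5′ to 3′ on the gene's strand, with TGATTGG in capitals. A match of letters is a description, not a bound site.
H2-Aa (chr17:34287844-34287933, minus strand): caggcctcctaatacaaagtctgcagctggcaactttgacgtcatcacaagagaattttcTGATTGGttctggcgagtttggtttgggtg
H2-DMb1 (chr17:34153081-34153170, plus strand): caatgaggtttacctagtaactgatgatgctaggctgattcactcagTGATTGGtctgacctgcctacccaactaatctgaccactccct
H2-Oa (chr17:34092269-34092358, plus strand): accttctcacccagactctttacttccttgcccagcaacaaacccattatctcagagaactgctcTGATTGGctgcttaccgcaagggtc
H2-Ob (chr17:34238795-34238884, plus strand): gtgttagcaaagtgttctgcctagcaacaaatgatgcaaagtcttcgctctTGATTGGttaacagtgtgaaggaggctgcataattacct
H2-Eb2 (chr17:34325565-34325654, plus strand): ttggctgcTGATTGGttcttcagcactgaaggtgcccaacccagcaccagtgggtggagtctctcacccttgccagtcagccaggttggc

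Several genes outside class II set members apart from all 3 groups. Klrd1, the CD94 chain of a lectin receptor known from NK cells, stood at 323 CPM [299 to 348] in members. It stood at 22.7 [7.37 to 53.0] in the MHC II-high cells with 0 dendritic UMIs, 11.2 in monocytes, 0.515 in macrophages and 0.824 in oligodendrocytes. A UMI of Klrd1 was seen in 59.1% of members and in 7.89%, 2.05% and 0.427% of the 3 groups and 0.449% of oligodendrocytes, and the highest member had 32.6 UMIs per 10000. It was 14.2-fold [6.07 to 44.0] higher than in the first group and 28.8-fold [17.3 to 51.7] higher than in monocytes. The NK and T cell genes Cd3e, Cd8a, Nkg7, Gzma, Klrb1c, Lck and Ncr1 had 0 UMIs in members (7 of the 12 on that list), and the list summed to 110.3 CPM in members, 173 in the first group, 204 in monocytes and 114 in macrophages. Klrd1 was therefore seen in members without the defining NK cell genes.

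Il1r2, a decoy receptor that binds interleukin 1 without signalling, stood at 295 CPM in members, against 36.3, 50.9 and 6.03 in the 3 groups in the same order. Il1b itself, the inflammatory cytokine, stood at 3471 CPM [3393 to 3551] in members, 1730.1 in the first group, 1567 in monocytes, 334 in macrophages and 79.2 in oligodendrocytes. A UMI of Il1b was seen in 95.3% of members and 20.3% of oligodendrocytes, and its quartiles there were 13.7, 30.1 and 51.5 per 10000. The antagonist Il1rn was at 42.3 CPM in members and 240.3 in monocytes. Members thus carried the cytokine and its decoy receptor at higher levels than the other groups, and its antagonist at a lower level than monocytes. Il1rn did not pass the size rule against the first group or macrophages. Il12b, a subunit of the T cell polarizing interleukin 12, had 0.469 CPM, which was 1 UMI in all members.

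Gpr171, a G protein-coupled receptor related to purine receptors, stood at 244 CPM in members and at 31.8, 11.2 and 5.0 in the 3 groups. Traf1, an adaptor of tumour necrosis factor receptors, stood at 233, against 72.7, 42.7 and 4.12. The cyclin Ccnd2 stood at 219 CPM in members, 81.7 in the first group, 13.5 in monocytes and 8.35 in macrophages. All 3 were higher in members than in each group by the size rule. The lectin Clec10a stood at 119 CPM, against 13.6, 6.74 and 8.94, and the NF-kB regulator Tnip3 at 179, against 68.1, 5.99 and 3.31. Cd72, a coreceptor known best from B cells, stood at 208 CPM against 81.7, 5.99 and 15. Most B cell identity genes were otherwise lacking in members. On the fixed list 7 of 11 had 0 UMIs, and the list summed to 48.8 CPM, against 19954 in B cells. The rule itself barred 1 of these 11, Cd79a. Ighm, also on that list, was higher in members than in macrophages (log2 2.26) and was the 1 gene of it measured there. Cd79b and Igkc were lower than in the first group, and 0 genes of the list passed the size rule against monocytes.

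Other genes above the size rule against the first group were the kinase Map3k14 (100 against 13.6 CPM), the corepressor Cbfa2t3 (137 against 27.2), the adaptor subunit Ap1s2 (278 against 72.7), the aryl hydrocarbon receptor Ahr (156 against 40.9), the Rab regulator Tbc1d4 (109.9 against 27.2) and the interferon-induced Ifitm6 (195 against 54.5). Against monocytes, Slamf9 stood at 119 against 7.48 CPM. Plac8, which defined monocytes and is not compared with them, stood at 624 CPM in members and 16.5 in macrophages.

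**Figure D2:**
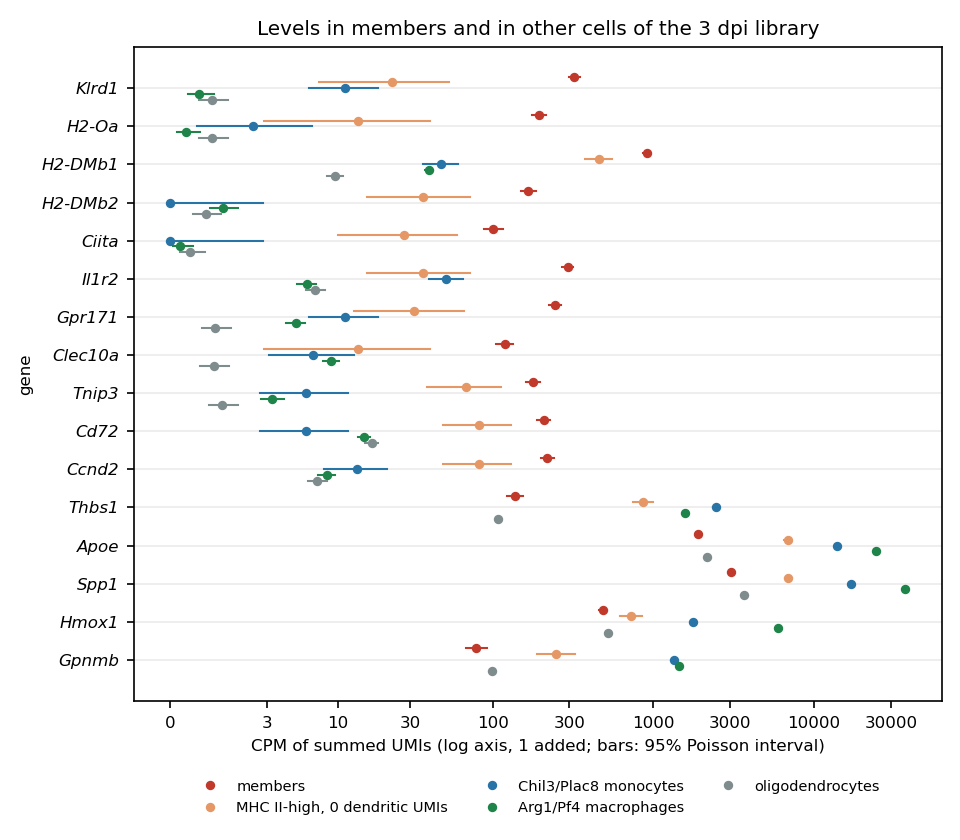
CPM of summed UMIs (x, log axis with 1 added) for 16 named genes (y) in members (red) and 4 other groups of the 3 dpi library, with 95% Poisson intervals as bars. Klrd1 in members (323 CPM) lies above every other group, while Apoe, Spp1 and Hmox1 in members lie near the oligodendrocyte points.

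On the other side, most measured macrophage genes were lower in members than in each group. Monocytes and macrophages were chosen by Chil3 and Plac8 or by Arg1 and Pf4. Genes that go with these would differ from members through the choice of cells alone. This bears on the macrophage, monocyte and phagocyte lists, and how much of those gaps follows from it was not tested. The first group was chosen without limits on these genes. The lysozyme gene Lyz2 stood at 2659 CPM in members, 10403 in the first group, 16113 in monocytes, 22109 in macrophages and 1365 in oligodendrocytes. Apoe, the lipid carrier, stood at 1892 CPM in members and 24395 in macrophages, and Spp1, osteopontin, at 3043 and 36804. Oligodendrocytes held 2147 of Apoe and 3691 of Spp1. The haem-degrading enzyme Hmox1 stood at 488 CPM in members, 5984 in macrophages and 526 in oligodendrocytes. The summed levels of these 3 genes in members were thus below those in oligodendrocytes, but for Spp1 the medians per cell were alike, at 9.40 per 10000 in members and 9.20 in oligodendrocytes, where single cells reached 936. Summed over the 19 genes of the macrophage list, members held 10945 CPM, the first group 27903, monocytes 49199.8, macrophages 100619 and oligodendrocytes 15273. Of the oligodendrocytes, 84 of 2006 also passed the limits of another group.

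By the size rule 13 of 18 measured macrophage genes were lower against the first group, 12 of 16 against monocytes and 15 of 17 against macrophages, and 0 were higher (list medians -1.19, -1.68 and -2.48). The matrix protein Thbs1 stood at 137 in members and 863, 2452 and 1578 in the 3 groups. Ms4a7 (50.7 against 277 CPM), Pla2g7 (27.7 against 186), the coagulation factor F10 (35.7 against 223), Aldh3b1 (15.5 against 109) and Hmgcs1 (19.7 against 127) were also lower than in the first group. Apod was lower too (234 against 1426 CPM), but 37.6% of its UMIs in members came from 1 cell, oligodendrocytes held 8369 CPM, and the ratio turned with called doublets removed (log2 0.09) and among female-derived cells (log2 0.51).

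Of the 11 measured monocyte genes outside the group's limits, 8 were lower in members than in monocytes and 0 higher (median -2.59). Against the first group 5 of 10 were lower and 1, Plac8, higher (-1.34). Against macrophages 5 of 9 were lower and 3, Plac8, Ccr2 and Ms4a4c, higher (-1.02). The whole monocyte list summed to 4355 CPM in members, 13069 in the first group, 25566 in monocytes, 25418 in macrophages and 1757 in oligodendrocytes. Ly6c2, the surface marker of inflammatory monocytes, stood at 15 CPM in members and 509.7 in monocytes, haptoglobin (Hp) at 14.1 and 419.9, and the protease inhibitor Slpi at 8.92 and 559.9. Slpi was 62.8-fold [39.9 to 105] lower. Mgst1 (3.76 against 199.8 CPM), Saa3 (3.76 against 185) and Gpnmb (78.9 against 1352) were also lower than in monocytes. The chemokine receptor Ccr2, through which monocytes enter tissue, did not follow them. It stood at 222 CPM in members [202 to 243], 227 in the first group and 260.5 in monocytes, and at 32.8 in macrophages.

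The genes of phagocytosis and lipid handling were lower as a group, with the same limit from the choice of monocytes and macrophages. Against macrophages 22 of 25 measured genes were lower and 2 higher, against monocytes 20 of 25 lower and 2 higher, and against the first group 13 of 24 lower and 0 higher (medians -2.56, -1.62 and -1.01). The fatty acid carriers Fabp5 and Fabp4 stood at 792 and 6.10 CPM in members and 11626 and 292 in macrophages. The protease Ctsd stood at 1303 against 11097, and the lipid droplet protein Plin2 at 348 against 2060.1. The genes of this list that were higher were the integrin Itgax (CD11c), at 180.3 against 28.4 in monocytes and 12.7 in macrophages, and the receptor Axl, at 42.7 against 9.73 and 8.76.

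Dendritic marker genes that the rule did not use were counted by list. Members were chosen by dendritic genes, and the first group had to lack them. Genes that go with those would therefore differ through the choice of cells alone. How much of the gaps follows from that choice was not tested. Of 9 measured genes of the list for cDC2 or monocyte-derived dendritic cells, 6 were higher against the first group, 7 against monocytes and 8 against macrophages, and 0 were lower (medians 1.28, 2.31 and 2.77). Mgl2, a galactose-binding lectin, stood at 92.0 CPM in members, 9.08 in the first group, 0 in monocytes and 0.405 in macrophages, and was seen in 12.8% of members. The cytokine Ltb stood at 42.3, 0, 13.5 and 1.73 CPM. Of 7 measured cDC1 genes 3, 4 and 5 were higher and 0 lower, and of 12 measured genes of mature migratory cells 7, 8 and 10 were higher and 0 lower. These counts do not hold for every kind of member. In the 272 members of the Ifitm1 subset described below, the whole cDC1 list, rule genes included, summed to 389 CPM. It summed to 436, 521 and 443 in the 3 groups. The whole mature list summed to 868 CPM in that subset, against 513, 335 and 264. The plasmacytoid list went the other way, with 5 of 7 measured genes lower against the first group (median -1.39), 3 of 5 against monocytes (-1.12), 0 of 2 against macrophages (0.73), and 0 higher in each. Its genes Klk1 and Ly6d had 0 UMIs in members. The medians of the cDC1, cDC2, mature, monocyte, macrophage, phagocyte and class II lists kept their sign in every comparison under the 9 alternatives that could move them, which leaves out the other minimum levels, as each list's genes were held fixed. That of the plasmacytoid list did not, with 0.53 against the first group among female-derived cells and 0.46 against monocytes among male-derived cells.

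**Figure D3:**
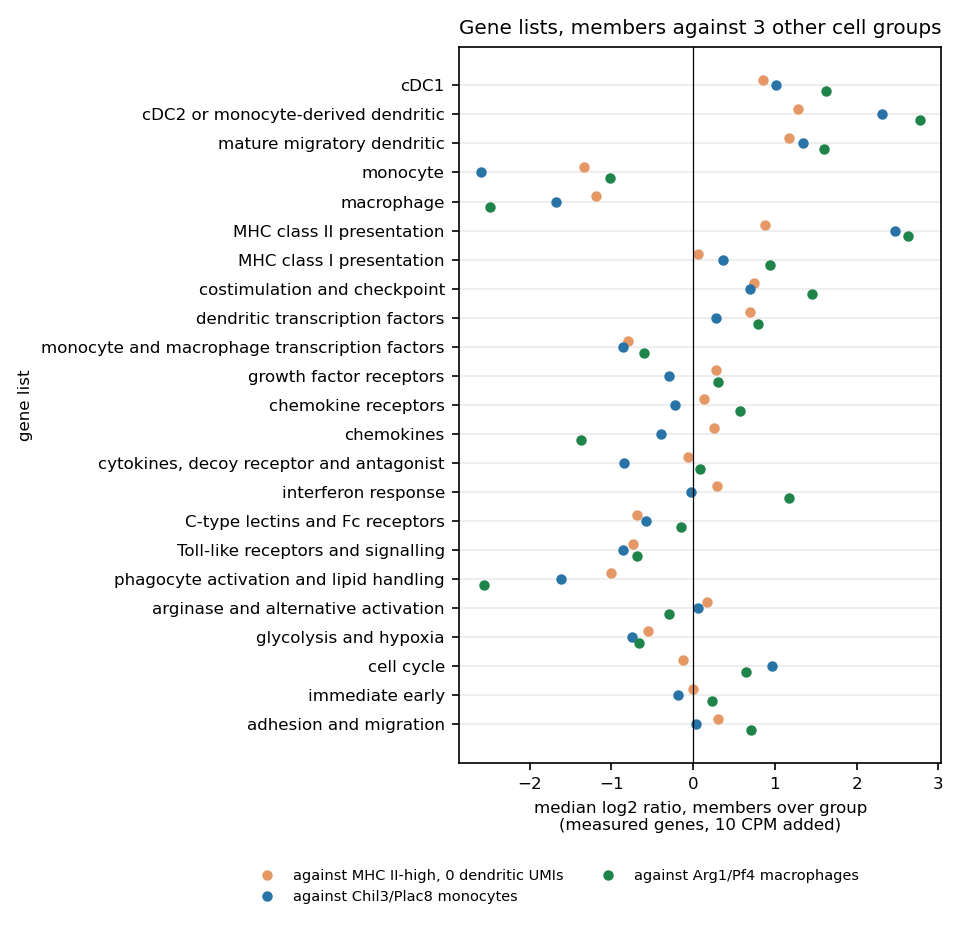
Median log2 ratio (x, members over the group with 10 CPM added) of the measured genes of fixed lists (y). Drawn are the cDC1, cDC2, mature migratory, monocyte and macrophage lists and 18 lists by gene function. Colours give the MHC II-high cells with 0 dendritic UMIs (orange), monocytes (blue) and macrophages (green) of the 3 dpi library. The 3 dendritic lists drawn and class II presentation lie right of 0 for each group, and the monocyte, macrophage and phagocyte lists lie left. The plasmacytoid list (-1.39, -1.12 and 0.73) is not drawn.

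Of 12 measured costimulatory and checkpoint genes 4 were higher in members than in the first group, 6 than in monocytes and 7 than in macrophages, and 0 were lower. Cd86, which gives T cells their second signal, stood at 213 CPM, against 99.9 in the first group, 98.1 in monocytes and 45.5 in macrophages. Cd83, a mark of dendritic maturation, stood at 325, against 127, 69.6 and 59.3. Cd80 stood at 39.4 CPM, against 9.08, 34.4 and 8.46, and did not pass the size rule against monocytes. The ligand Tnfsf9 stood at 102 CPM, against 54.5, 15.7 and 11.7, and did not pass it against the first group. The inhibitory ligand Cd274 (PD-L1) stood at 27.7 CPM in members and at 27.2 in the first group.

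Class I presentation differed less. Of its measured genes 0 of 18 were higher against the first group, 2 of 17 against monocytes and 7 of 17 against macrophages. The immunoproteasome subunit Psmb8 stood at 721 CPM, against 486, 302 and 237, and Psmb9 at 192, against 104, 59.9 and 37.2. Of the interferon response genes 2 of 17 were higher against the first group, 1 of 18 against monocytes (with 2 lower) and 12 of 17 against macrophages. Isg15 stood at 88.7 CPM in members, 77.2 in the first group, 77.1 in monocytes and 15 in macrophages. Ifitm2 stood at 2583, against 972, 1385 and 440.2, and Ifitm3 at 3377, against 1934, 2686 and 533, but these are close copies of each other and relatives of the rule gene Ifitm1, so how reads were shared is uncertain.

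Among transcription factors, Irf4, which is needed by cDC2, stood at 35.2 CPM in members and at 13.6, 2.99 and 0.478 in the 3 groups. Batf3, needed by cDC1, stood at 25.8 CPM, against 4.54, 0 and 2.35. Bhlhe40 stood at 215 CPM, against 81.7, 58.4 and 43.8, and was seen in 65.6% of members. Irf8, shared by cDC1 and macrophages, was not higher in members as a whole (152 CPM, against 182, 191 and 194). Spi1 (PU.1), the general myeloid factor, stood at 629 CPM, against 522, 518 and 357. Of 15 measured factors 2, 5 and 7 were higher and 0, 1 and 0 lower.

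Receptors for growth factors and chemokines differed one by one. The stem cell factor receptor Kit was at 34.7 CPM in members, seen in 17.8%, and at 0, 2.99 and 0.662 CPM in the 3 groups, while the mast cell and basophil genes Mcpt8, Cpa3, Fcer1a and Gata2 had 0 UMIs in members. The interferon gamma receptor chain Ifngr1 stood at 453 CPM, against 195, 191 and 94.0, and the oxysterol receptor Gpr183, which guides cDC2, at 253, against 90.8, 99.5 and 17.5. The shared chain Csf2rb of the GM-CSF receptor stood at 324, against 199.8, 294 and 132. Csf1r, the receptor of the macrophage growth factor, stood at 177, against 249.7, 238 and 174. The integrin chain Itgb7 stood at 177 CPM, against 68.1, 106 and 20.2. Of the chemokines, Ccl2, which draws monocytes, was lower in members (115 CPM) than in the first group (327), monocytes (774) and macrophages (626), and Cxcl16 was at 422 against 341, 124 and 197.

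Members were then split by the dendritic gene they carried with at least 2 UMIs, taken in a fixed order. There were 14 with Xcr1 or Clec9a, 20 with Ccr7, 20 with Cd209a, 10 with Flt3 or Zbtb46, 272 with Ifitm1 and under 2 UMIs of each of the others (80.7%), and 1 with no such count of any. Of the 272, 41 still had a UMI of Flt3, 20 of Cd209a and 11 of Zbtb46. Subsets are named by that gene, which is no finding, and the other genes are a description. One UMI was worth 10.7, 11.8, 10.3, 13.7 and 0.563 CPM in these subsets in that order. The class II median was 499, 602, 565, 499 and 511 per 10000, with ranges of 225 to 747, 159.5 to 939.9, 196 to 836, 161 to 581 and 151 to 1039, so the subsets overlapped in class II. Ifitm1 was present in the other subsets too, with a UMI in 10 of 14, 18 of 20, 18 of 20 and 10 of 10 cells.

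The 14 members with Xcr1 or Clec9a carried further cDC1 genes. The lipid hydrolase Naaa stood at 792 CPM there and at 51.1 in the other members (15.5-fold [11.4 to 21.1]), in 12 of the 14 cells. Irf8 stood at 1102 against 109 CPM (10.2-fold [7.96 to 12.9]) and Batf3 at 246 against 15.7 (15.7-fold [8.75 to 27.6]). Snx22 stood at 214 against 4.42 and the inhibitory receptor Btla at 203 against 13.3. The list of 13 cDC1 markers, 2 of which chose these cells, summed to 4228 CPM, against 589.8 in the Ccr7, 267 in the Cd209a, 1609 in the Flt3 or Zbtb46 and 389 in the Ifitm1 subset. Plac8 stood at 2044 CPM in them, the highest of these 5 subsets. Il1b was at 1113 CPM against 3471 in all members, and Clec10a and Mgl2 had 0 UMIs. Genes of this subset were chosen after their values were seen, as it was smaller than the minimum of 20 cells for naming.

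The 20 members with Ccr7 carried genes of mature migratory dendritic cells. The chemokine Ccl5 stood at 1026 CPM there and 6.36 in the other members (161-fold [89.6 to 315]), in 11 of 20 cells. The amino acid oxidase Il4i1 stood at 613 against 12.2 CPM (50.2-fold [30.6 to 84.4]) and the chemokine Ccl22 at 307 against 12.7 (24.1-fold). The calcium channel subunit Cacnb3 stood at 165 against 2.93, and Tbc1d4 at 1026 against 71.9. H2-Eb2, a class II gene whose upstream letters are shown above, had 13 UMIs in 9 of these 20 cells and 0 in the other members, at least 105-fold higher against 3 counts over those. H2-DMb1 was lower there than in any other subset of 10 or more cells, at 460.0 CPM against 910.3 in all members. The fatty acid carrier Fabp5 stood at 2442 CPM, against 792 in all members.

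The 20 members with Cd209a differed less from the rest. Clec10a stood at 646 CPM there and 93.5 in the other members (6.92-fold [5.12 to 9.24]), in 14 of 20 cells. The endolysosomal channel Tpcn1 stood at 144 against 31.5 CPM, Il10ra at 185 against 44.8, the ligand Tnfsf9 at 308 against 92.5 and Cd7 at 164 against 43.8. Klrd1 stood at 616 CPM, in 18 of 20 cells, and Il1b at 4577. Irf8 was at 20.5 CPM there.

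The 10 members with Flt3 or Zbtb46 led in genes of cell division, again chosen after their values were seen. Nusap1 stood at 151 against 11.2 CPM in the other members and Ube2c at 234 against 29.2. Itgae (CD103) stood at 220.0 against 26.2 CPM and was at 203 in the Xcr1 or Clec9a subset, with 0 UMIs in the Ccr7 and Cd209a subsets. At least 3 UMIs over 6 division genes were seen in 4 of 10 (40.0% [12.2 to 73.8]), and in 0 of 20 in the Ccr7 and in the Cd209a subset, which allows up to 16.8% in each by the exact interval. This was so in 36 of all 337 members (10.7% [7.59 to 14.5]), 1.03% of monocytes, 7.53% of macrophages and 6.63% of oligodendrocytes. After thinning to 1000 UMIs, at least 1 such UMI was seen in 8.90% of members, 3.42% of monocytes, 6.99% of macrophages and 5.68% of oligodendrocytes. Before thinning, the macrophage and oligodendrocyte shares lay below the interval of members. After thinning that interval was [6.09 to 12.5], with the macrophage share inside it and the oligodendrocyte share below it. In the first group the shares were 5.26% [0.644 to 17.7] and 7.89% [1.66 to 21.4]. No cycling is read from these shares. In the fixed cell cycle list, 8 of 18 measured genes were higher and 0 lower in members than in monocytes (median log2 0.96). Against macrophages 3 of 17 were higher and 0 lower (0.65). Against the first group 0 of 18 were higher and 1 lower, and the median of -0.12 turned to 0.50 with called doublets removed.

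Macrophage genes led the 272 members of the Ifitm1 subset. Arg1 stood at 397 CPM there and 28.4 in the other members (14.0-fold [7.57 to 29.3]), Fn1 at 507 against 62.4, Hmox1 at 565 against 99.3 and C1qc at 339 against 59.6. Arg1 had a UMI in 71 of the 272 and C1qc in 116, so both came from a minority of the cells. The genes that set all members apart were present here too. Klrd1 was seen in 146 of the 272 at 293 CPM, against 299.7 in the Xcr1 or Clec9a and 616 in the Cd209a subset. Il1r2 stood at 304 CPM, Gpr171 at 229.6 and H2-DMb1 at 892. Clec10a stood at 94.0 CPM and Mgl2 at 99.0.

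**Figure D4:**
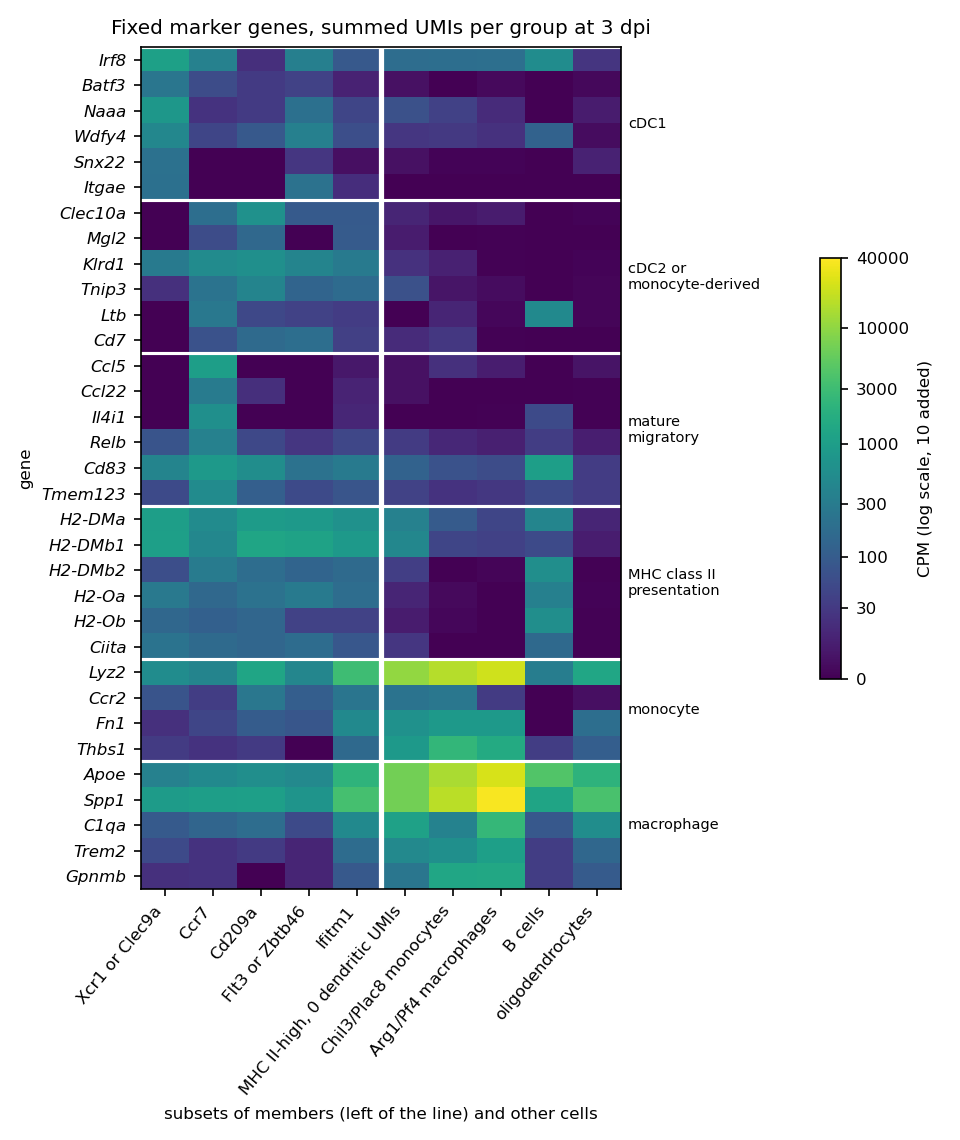
Colour gives CPM of summed UMIs (log scale, 10 added) for genes of 6 fixed lists (y) in 5 subsets of members and 5 other cell groups (x). The cDC1 genes are brightest in the Xcr1 or Clec9a column and Ccl5, Ccl22 and Il4i1 in the Ccr7 column, while H2-DMa and H2-DMb1 are bright in all 5 subsets.

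Lyz2 was low in most members and high in some. Its median was 5.03 per 10000 in members and 2.89 in oligodendrocytes, against 66.6 in the first group, 137 in monocytes and 186 in macrophages. Yet 48 members had 50 or more per 10000, of which 47 were in the Ifitm1 subset and 1 in the Cd209a subset. This limit was set after the data were seen and marks a range, not a type, with 21 members between 25 and 50 and 29 between 50 and 100. The 48 had Arg1 at 1288 CPM and C1qa at 859, and the other 289 had 135 and 350.2, at median depths of 6117.5 and 5417 UMIs. Klrd1 stood at 56.6 CPM in the 48 and 379 in the 289, H2-Oa at 21.6 and 231, H2-DMb1 at 517 and 993, and Il1r2 at 99.7 and 336. Their class II medians were 252 and 558 per 10000, and Ifitm1 stood at 2535 and 6731 CPM. Ccr2 did not follow, at 280.2 and 209 CPM. Called doublets were 11 of the 48 and 22 of the 289, and their part in this pattern was not tested.

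**Figure D5:**
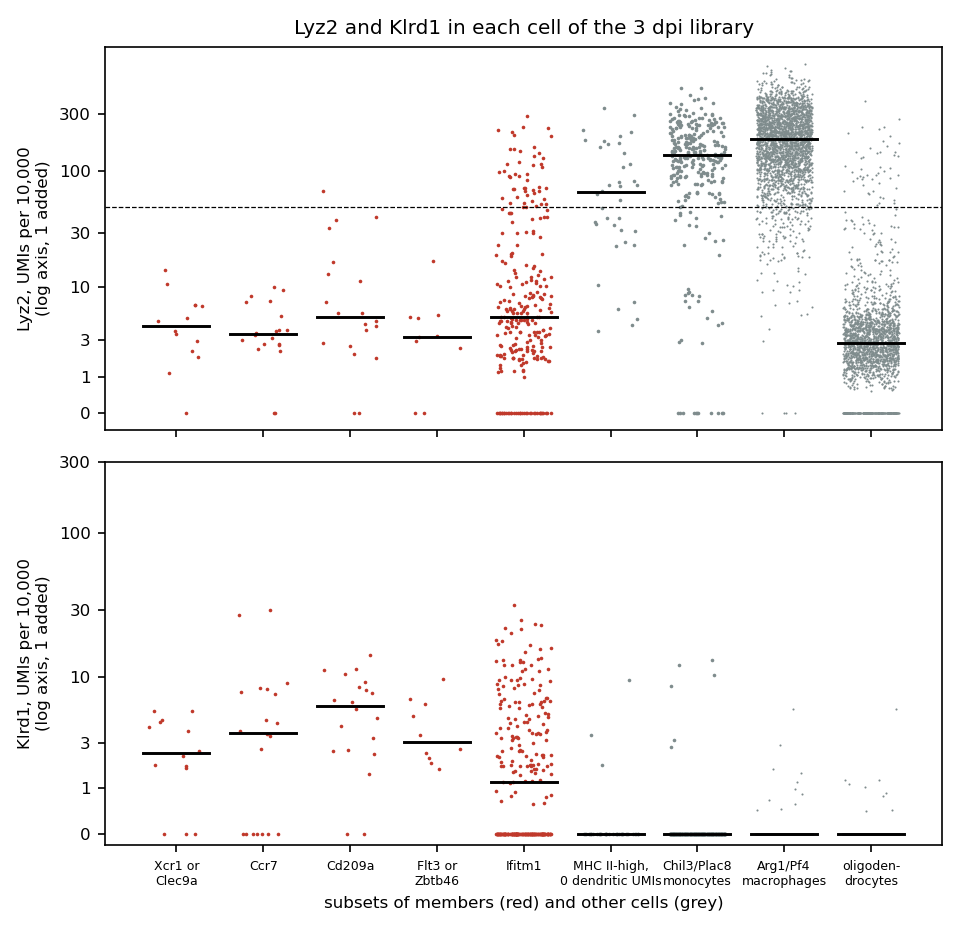
UMIs per 10000 (y, log axis with 1 added) of Lyz2 (top) and Klrd1 (bottom) in each cell of 5 subsets of members (red) and 4 other groups (grey, with the 1922 oligodendrocytes that are in no other group); black bars are medians and the dashed line is 50 per 10000. Points of the Ifitm1 subset spread over the whole Lyz2 range, from 0 to 287, and 48 members lie at or above the line.

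Marker lists of further cell types were summed in members. The oligodendrocyte list summed to 774 CPM, against 30643 in oligodendrocytes, with 6 members past the minimum that defined oligodendrocytes. The microglia list summed to 553 CPM, against 736 in oligodendrocytes, and the neutrophil list, limited by the rule, to 203, with Ly6g at 0. Of the border macrophage list, Cd163 had 0 UMIs and the sum was 343 CPM, of which Clec4n gave 312. The endothelial list summed to 72.3 CPM in members, against 36.3, 27.7 and 18.2 in the 3 groups and 29.6 in oligodendrocytes. Of its 2 measured genes Cldn5 was higher against the first group and macrophages, at 20.7 CPM in members, in 2.67% of them, and the list's median against the first group went from 0.86 to 0.07 with called doublets removed. Members within the limits of the monocytes for Chil3 and Plac8 were 92 (27.3%), and of the macrophages for Arg1 and Pf4 25 (7.42%).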

How the data were processed

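Per the labels' protocols, cord was digested to single cells, which went through 10X Chromium droplets (3′ chemistry, v.3) and paired-end sequencing on an Illumina instrument. The deposited tables hold raw UMI counts per gene symbol and barcode, 22480 symbols in each, with 0 mitochondrial rows. The submitters' processing notes name Cell Ranger, Seurat and the human build GRCh38, without versions. No source used here says how barcodes were filtered.

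Counts were summed over cells and given as CPM with exact Poisson intervals. Ratios had exact conditional intervals and shares Clopper-Pearson intervals. Each library's barcodes were given a doublet score by their share of simulated neighbours (2 simulated per barcode), and the 8.11% (sham) and 10.9% (3 dpi) with the highest scores were called and kept. The script for ratios was checked on simulated data. Python 3.11.15, numpy 2.4.6, scipy 1.17.1, scikit-learn 1.9.0 and matplotlib 3.10.9 were used.

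Named genes were the 12 highest and 8 lowest log2 ratios against each group, among genes with at least 100 CPM, 20 UMIs and 10% of cells in the higher group, without rule, limit, ribosomal and sex-linked genes. For subsets of at least 20 members they were the 8 highest, with 50 CPM, 10 UMIs and 20% of cells. Genes of 36 fixed lists (463 genes, 4 absent from the tables) were added. The members and lists were chosen with earlier results of these data known. Promoter letters are from RefSeq. Some genes that the rule would name are not reported here.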

Additional observations from a re-analysis of the deposited data

How the results depend on the processing

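No paired analysis was possible because each group was 1 library. The share of members at 3 dpi was 2.64%, and 0.565% with Ifitm1 left out of the rule, 2.0% after thinning and 2.33% among male-derived barcodes. The sham share was 0 after thinning and among female-derived barcodes. Against the MHC II-high cells with 0 dendritic UMIs, the counts of genes higher and lower were 439 and 536 with 1 CPM added, 59 and 105 at a minimum of 100 CPM, 451 and 736 for members by the other 6 dendritic genes, 857 and 1144 for male-derived and 659 and 678 for female-derived cells, and 491 and 826 without the Ifitm1 subset, against 279 and 287. Against monocytes (273 and 390) they were 90 and 190 at 100 CPM, 431 and 740 by the other 6 genes and 467 and 807 without the Ifitm1 subset, with 414 higher when 1 CPM was added and 527 higher among female-derived cells. Against macrophages (454 and 352) they were 188 and 162 at 100 CPM and 710 and 786 without the Ifitm1 subset, with 707 lower by the other 6 genes. A minimum of 100 CPM tests fewer genes, 1531, 1620 and 1574 in the 3 comparisons, against 5637, 5585 and 5482 in the main setting. Counts at that minimum are therefore not comparable with the main counts as numbers. The other settings given here tested between 5575 and 5988 genes. The sets with fewer members hold fewer UMIs, and the cause was otherwise not tested. Leaving out the Ifitm1 subset, or the members with Lyz2 at 50 or more per 10000, was chosen after seeing the data. The ratio of Apod to the first group turned from -2.56 to 0.09 without called doublets and to 0.51 among female-derived cells. Over all settings, 52 other values of shares and counts stayed within their interval or within 1.5 times. Of the ratios of single named genes, 577 values stayed within 2-fold and 81 moved by more with the same sign. Among the 3 comparison groups depth limits the first most, where 3 UMIs are 13.6 CPM, as for H2-Oa.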

Other observations

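Lectins and Fc receptors of myeloid cells differed in both directions, while Toll-like receptors and their signalling genes did not. Of that fixed list 0 genes were higher in members in any comparison. Lower were 3 of 10 measured genes against the first group, 5 of 11 against monocytes and 3 of 10 against macrophages. Of the fixed list of lectins and Fc receptors, 3 of 18 measured genes were higher and 5 lower in members than in the MHC II-high cells with 0 dendritic UMIs, 3 and 8 of 18 against monocytes, and 3 and 4 of 18 against macrophages. The 3 higher genes were Clec10a, Mgl2 and Fcgrt, the receptor that recycles antibody, in each comparison. Fcgrt stood at 61.0 CPM in members, 4.54 in the first group, 17.2 in monocytes and 24.8 in macrophages. The activating Fc receptor Fcgr3 stood at 138 CPM, against 418, 538 and 470.3, and the lectin Clec4d at 88.7, against 318, 681 and 465. The lipopolysaccharide coreceptor Cd14 stood at 359 CPM, against 754, 1442 and 699.7, and the complement receptor C5ar1 at 52.1, against 227, 366 and 225. In oligodendrocytes Cd14 stood at 97.9 and C5ar1 at 32.9 CPM.

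Of the adhesion and migration list, 3 of 20 measured genes were higher and 1 lower in members than in the first group, 3 and 3 of 21 against monocytes, and 8 and 0 of 19 against macrophages. Over all measured genes 4.95%, 4.89% and 8.28% were higher and 5.09%, 6.98% and 6.42% lower, so 1 of 20 lower lay near that share. The list medians were log2 0.31, 0.04 and 0.71. The selectin ligand Selplg stood at 306 CPM in members, against 154, 130.2 and 73.0 in the same 3 groups, and passed the size rule against monocytes and macrophages. The integrin chain Itgal stood at 10.8 CPM, against 49.9, 89.8 and 9.01, and was lower than in the first group and monocytes. Cebpb, a factor of inflammatory monocytes and macrophages, stood at 578 CPM, against 1394, 2250.0 and 1146. The phosphofructokinase genes went apart, with Pfkp at 132 CPM against 45.4, 79.3 and 52.9, and Pfkl at 57.3 against 136, 129 and 136. Ffar2, a receptor for short fatty acids, stood at 20.7 CPM in members, 4.54 in the first group and 0 in monocytes and macrophages.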
